A study of Homo sapiens with 4 samples.

Results

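Kinesins are motor proteins that use ATP to walk along microtubules or to take them apart at their ends. One set of them builds the mitotic spindle, moves chromosomes and completes cell division, and the mRNAs of many of these motors peak late in the cell cycle. Another set carries vesicles, organelles and ciliary components between the cell centre and its periphery. The kinesin genes were taken here by name, as every gene whose symbol is KIF or KIFC followed by a number and at most 1 letter from A to C, on the main chromosomes, which gave 42 genes of the 24934 gene rows in the table. The name matched 44 rows in all, and the 2 rows left out are KIFC1 on alternative haplotypes, both listed at 0. By their known roles, 15 genes were classed as mitotic, 15 as transport and 12 as other.

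The study reduced ZSCAN5A or ZSCAN5B, zinc finger genes of the SCAN family, in HEK-293 cells, an established human kidney cell line, and asked which genes responded. Cells received 10 nM siRNA and RNA was taken 48 h later. The ZSCAN5A knockdown group holds a library from siRNA si4 and a library from siRNA si5, the ZSCAN5B knockdown group a library from siRNA si1, and the control group a library from a scrambled siRNA. Each siRNA had 1 library, no label names repeat cultures, and both knockdowns share the control library, so the comparisons are described without a test and their ratios are not independent of each other. Values are FPKM, fragment counts scaled to transcript length and to the size of the library, which allow levels of different genes to be set side by side, and positions are on hg19 (GRCh37), with starts counted from 1.

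ZSCAN5A was listed at 0.73 FPKM under si4 and 0.71 under si5, whereas the control had 2.42 and si1 2.53. ZSCAN5B was at 0.0331 FPKM under si4, 0.0663 under si5, 0.0948 under si1 and 0.0903 in control cells, which came to 6, 17, 16 and 15 fragments. These numbers are too small to check the si1 label, and the sample is named by it, as the library labelled ZSCAN5B knockdown. The steps between the lowest FPKM values put the depth at about 51600000 to 56400000 fragments in the control, si1 and si4 libraries and 79800000 in si5. Of the HEK-293 markers, VIM lay between 269.7 and 358.8 FPKM and NEFL between 37.0 and 45.2, whereas PAX2 was at 1.16 in the control and at most 0.615 elsewhere. Of the 8 markers of other cell types, PTPRC, CD3E, PECAM1, CDH5 and ALB stayed at or below 0.0335 FPKM, COL3A1 lay between 0.275 and 0.372, COL1A1 between 1.102 and 1.85, and HBA1 between 0.65 and 2.17.

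Most kinesins were expressed in these cells. Of the 42 genes, 34 reached 1 FPKM in at least 1 library, 13 of them mitotic, 14 transport and 7 other. Mitotic kinesins made up 64.6% of the summed kinesin FPKM in the control, transport kinesins 30.2% and the others 5.19%. The median level in the control was 27.6 FPKM over the 13 mitotic genes, 9.3 over the 14 transport genes and 2.37 over the 7 others. Ordered by control level, KIF22 at 58.0 FPKM, KIF23 at 52.0 and KIF5B at 49.9 came at the top, and KIF5B was the only transport gene among the 9 highest. These 3 ranged from 52.6 to 61.1, from 45.4 to 56.2 and from 46.1 to 51.7 over the 4 libraries, so KIF22 lay above KIF5B in every library, KIF22 and KIF23 overlapped in range, and the order of KIF23 and KIF5B was not separated by the spread between libraries.

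**Figure D1:**
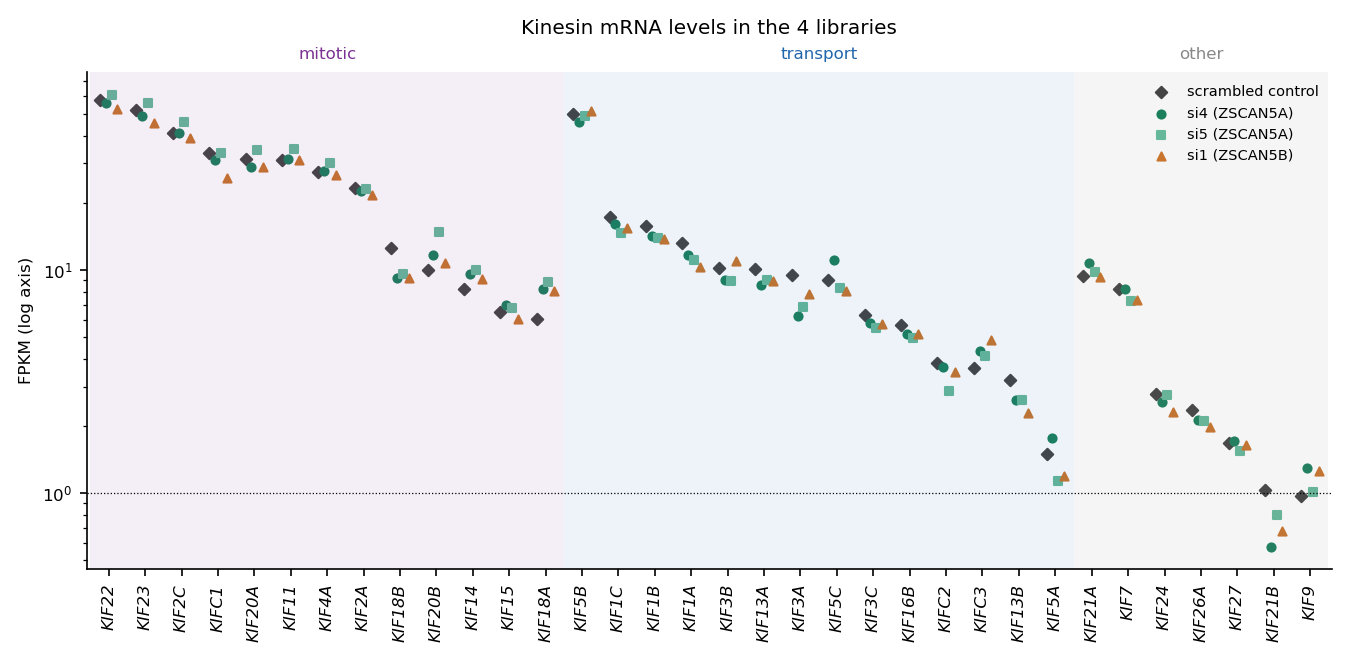
FPKM on a log axis for the 34 kinesin genes that reached 1 FPKM, ordered within each class by the control level. Each gene has 4 points, 1 per library, and the dotted line marks 1 FPKM. Mitotic genes lie mostly above 6 FPKM, transport genes spread from 1.13 to 51.7, and the 4 points of a gene usually lie close together beside the distance between genes.

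With ZSCAN5A knockdown, mitotic kinesins stood slightly above the control, though not with si4 alone, where their median was -0.004, and transport kinesins slightly below it in the deposited values. The median log2 ratio of the mean of si4 and si5 to the control was 0.07 over the mitotic genes and -0.17 over the transport genes, against -0.02 over all 12993 genes past the same 1 FPKM limit. Among mitotic genes 10 had the higher value with knockdown and 3 the lower, and among transport genes 2 the higher and 12 the lower. Only KIF21B passed a 1.5-fold limit, 1 of the 34 genes, where 3.79% of all genes did. In the library labelled ZSCAN5B knockdown the medians were -0.10 for the mitotic and -0.16 for the transport genes, against -0.01 over 12921 genes, and KIF21B was again the gene past 1.5-fold, where 4.01% of all genes were. The transport medians did not hold when each ratio was set against genes of similar transcript length and GC content, as given with the class comparison further on.

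Of the mitotic genes, those that assemble the spindle had log2 ratios between -0.10 and 0.17 with si4 and si5. KIF11 (chr10:94352825-94415152, plus strand), the plus-end motor that slides antiparallel microtubules apart and keeps the spindle bipolar, was at 31.4 FPKM under si4, 34.8 under si5, 31.2 under si1 and 31.0 in control cells. Its si5 library was at 1.12 of the control, with a 95% counting interval of 1.09 to 1.15. KIF15, a motor that can back up KIF11, was at 6.98, 6.79, 6.01 and 6.46 FPKM in the same order, with both ZSCAN5A siRNAs above the control and si1 below it. KIFC1, a minus-end motor that gathers spindle poles, was at 31.1, 33.5, 25.9 and 33.3 FPKM. The low library of KIFC1 was si1, at 0.778 of the control with a 95% counting interval of 0.743 to 0.815.

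In the mean of si4 and si5 and in si1, the motors that act at microtubule ends held the highest and the lowest ratio of the mitotic class. KIF18A (chr11:28042163-28129746, minus strand), which shortens the swings of chromosomes at the metaphase plate, was at 8.23 FPKM under si4, 8.86 under si5, 8.07 under si1 and 6.05 in control cells. All 3 siRNA libraries lay above the control, by 0.44, 0.55 and 0.42 on the log2 scale. The counting intervals of the ratio were 1.26 to 1.47, 1.36 to 1.58 and 1.23 to 1.45, each above 1. Its close relative KIF18B (chr17:43003448-43025082, minus strand), which limits the length of astral microtubules, was at 9.22, 9.58, 9.26 and 12.5 FPKM in the same order. All 3 siRNA libraries lay below the control by similar amounts, with log2 ratios of -0.44, -0.39 and -0.44, and with counting intervals of 0.694 to 0.779, 0.726 to 0.805 and 0.696 to 0.782. Since a single control library stands on 1 side of all 3 ratios, its own deviation cannot be told apart from a shared response to the siRNAs.

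The other genes of this group stayed near the control. KIF2C, the depolymerase of centromeres, was at 41.1, 46.3, 39.2 and 41.2 FPKM with si4, si5, si1 and the control. KIF2A, a depolymerase of spindle poles that also works in neurons, was at 22.7, 23.0, 21.7 and 23.4. Its exons overlap an opposite-strand gene, DIMT1. KIF2B was listed at 0 in every library.

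The chromosome arm motors KIF22 and KIF4A differed from the control by at most 0.14 on the log2 scale in each library. KIF22, which pushes chromosome arms from the poles, was at 56.1, 61.1, 52.6 and 58.0 FPKM with si4, si5, si1 and the control. KIF4A, which organises chromosomes and the central spindle, was at 27.9, 30.2, 26.7 and 27.6. Its intronless near copy KIF4B had at most 0.106 FPKM, which came to 17, 27, 13 and 10 fragments, and how the authors' counting split fragments between the pair is not given in the sources used here.

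Among the motors of the spindle midzone and cytokinesis, KIF20B and KIF14 lay above the control in all 3 siRNA libraries. KIF20B (chr10:91461367-91534700, plus strand), needed for late cytokinesis, was at 11.7 FPKM under si4, 14.8 under si5, 10.8 under si1 and 10.0 in control cells. The 2 ZSCAN5A siRNAs differed more from each other than the other mitotic genes did, with log2 ratios of 0.22 and 0.56 to the control. KIF14, which works with citron kinase at the midbody, was at 9.57, 10.1, 9.09 and 8.23 FPKM, and its counting intervals of 1.11 to 1.22, 1.17 to 1.28 and 1.05 to 1.16 all lay above 1. KIF20A, which brings the chromosomal passenger complex to the midzone, was at 28.9, 34.4, 29.1 and 31.3 FPKM. KIF23, the motor subunit of centralspindlin, was at 48.9, 56.2, 45.4 and 52.0. For KIF20A and KIF23 the si5 library alone was above the control.

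At a lower limit, more than 25% higher or more than 20% lower, KIF18A and KIF20B were higher and KIF18B, KIF3A and KIF21B lower with ZSCAN5A knockdown, where 5.14% of all genes were higher and 13.4% lower. With the library labelled ZSCAN5B knockdown, KIF18A, KIFC3 and KIF9 were higher and KIF18B, KIFC1, KIF1A, KIF13B and KIF21B lower, where 6.7% of all genes were higher and 12.8% lower. As shares of the 34 kinesins, 2 higher and 3 lower genes stay near or below these backgrounds for ZSCAN5A, and 3 higher and 5 lower genes for the library labelled ZSCAN5B knockdown lie close to them. KIF9 reached 1 FPKM only through si1 in that comparison, so its higher value was built into its selection. After the correction for length and GC content, KIF18A, KIF20B and KIF3A stayed past this limit with ZSCAN5A knockdown and KIF18B and KIF21B did not. KIFC3 and KIF9 came past it as higher genes, at 0.37 and 0.36, though KIF9 reached 1 FPKM only through the siRNA libraries. In the library labelled ZSCAN5B knockdown none of the 5 lower genes stayed past it. Their log2 ratios were -0.30 for KIFC1, -0.29 for KIF18B, -0.22 for KIF21B and -0.16 for KIF13B, and KIF1A turned to 0.03. There KIF3A came past it as a lower gene, at -0.325, and KIF18A, KIFC3 and KIF9 stayed higher, at 0.325, 0.567 and 0.461.

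**Figure D2:**
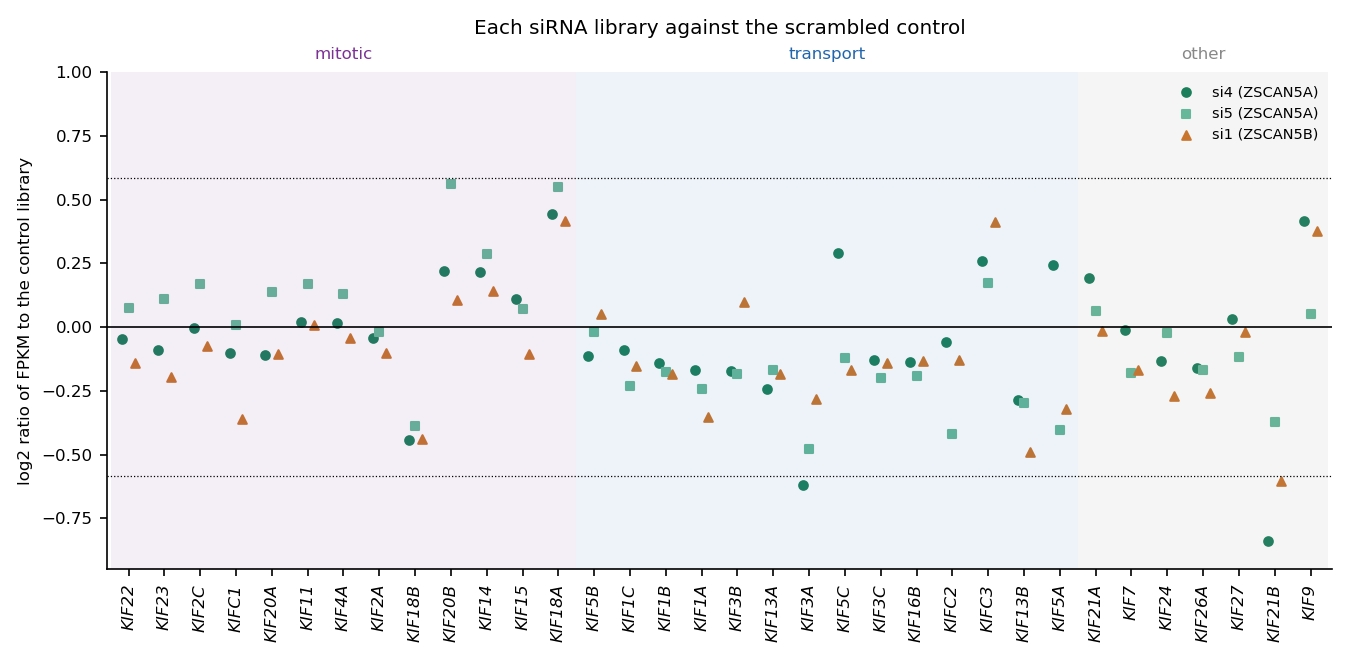
The log2 ratio of FPKM to the control library for si4, si5 and si1, for each of the 34 genes by class, with the order of genes as in the plot of levels. The solid line is no difference and the dotted lines are 1.5-fold. KIF18A lies high and KIF18B low in all 3 libraries, and 11 of the 14 transport genes have si4 and si5 below 0 in these uncorrected values.

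In the deposited values most transport kinesins lay below the control with ZSCAN5A knockdown, in kinesin-2 (3 of 3 genes) and kinesin-3 (6 of 6) but with no shared direction in kinesin-1 and kinesin-14, and the correction for length and GC content did not keep the direction of the class. Both si4 and si5 lay below the control for 11 of the 14 transport genes and 2 of the 13 mitotic genes, where 41.9% of all genes did. Both lay above it for 1 transport and 6 mitotic genes, where 34.6% of all genes did. The si1 library lay above the control for 3 transport and 4 mitotic genes, where 48.5% of all genes did, and below it for 11 and 9, where 51.5% did. For 5 of the 34 kinesins si4 and si5 lay on one side of the control and si1 on the other, which 10.1% of 13078 genes did.

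With ZSCAN5A knockdown KIF3A showed the lowest ratio of the transport class, whereas in si1 KIF13B did, at -0.49. KIF3A and KIF3B form the heterodimer that, with the adaptor KIFAP3, drives transport inside cilia. KIF3A (chr5:132028323-132073265, minus strand) was at 6.20 FPKM under si4, 6.84 under si5, 7.83 under si1 and 9.53 in control cells. Every siRNA library was below the control, with log2 ratios of -0.62, -0.48 and -0.28, and si4 alone was past 1.5-fold. The counting intervals were 0.616 to 0.687, 0.683 to 0.753 and 0.78 to 0.866, so the ZSCAN5A libraries did not overlap with si1 within counting error. KIF3B was at 9.04, 8.96, 10.9 and 10.2 FPKM in the same order, with si1 as the only siRNA library above the control. KIF3C, which pairs with KIF3A in neurons, was at 5.77, 5.50, 5.72 and 6.31, and KIFAP3 at 15.03, 15.2, 16.6 and 16.1. KIF17, a homodimer of the same family, stayed below 1 FPKM, between 0.593 and 0.763.

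The 6 kinesin-3 genes, motors of vesicles and endosomes, were all below the control in all 3 siRNA libraries. KIF1A, which carries synaptic vesicle precursors, was at 11.7, 11.1, 10.3 and 13.2 FPKM with si4, si5, si1 and the control. KIF1B, a carrier of mitochondria and vesicles, was at 14.2, 13.8, 13.8 and 15.7, and KIF1C, which carries vesicles toward the cell edge, at 16.2, 14.6, 15.5 and 17.2. KIF13B, a carrier of membrane proteins, was at 2.63, 2.61, 2.28 and 3.21 FPKM, the widest difference of the family, with log2 ratios of -0.29, -0.30 and -0.49. KIF13A, a motor of recycling endosomes, was at 8.58, 9.02, 8.94 and 10.2, and KIF16B, which moves early endosomes, at 5.15, 4.97, 5.17 and 5.67. The correction sets each ratio against the median of genes matched in length and GC content. With ZSCAN5A knockdown KIF1A, KIF1B, KIF1C and KIF13B then stood above that median, at 0.06 for KIF13B, though their FPKM stayed below the control. KIF13A and KIF16B stood below it, so relative to matched genes the family had no shared direction.

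Kinesin-1, the conventional carrier that works with kinesin light chains, showed no shared direction with si4, with si1 or in the mean of si4 and si5. With si5 alone all 3 genes lay below the control. KIF5B, its broadly expressed heavy chain, was at 46.1, 49.2, 51.7 and 49.9 FPKM with si4, si5, si1 and the control. KIF5C, a neuronal heavy chain, was at 11.1, 8.34, 8.08 and 9.07, and KIF5A, the other neuronal heavy chain, at 1.77, 1.13, 1.198 and 1.49. For KIF5A and KIF5C, si4 was the highest library and lay above the control, whereas si5 lay below it. KIF5A was the only kinesin past 1.5-fold between si4 and si5, with a log2 ratio of 0.65, where 2.53% of all genes were. The exons of KIF5A overlap the opposite-strand gene DCTN2. The minus-end motors of this class differed in direction, with KIFC3 at 4.36, 4.12, 4.85 and 3.65 FPKM and KIFC2 at 3.68, 2.86, 3.50 and 3.83. KIFC3, which acts at the Golgi and at cell junctions, was above the control in all 3 siRNA libraries.

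Of the 7 expressed genes in neither class, KIF21B had the widest ratio to the control in the mean of si4 and si5 and in si1. KIF21B (chr1:200938514-200992828, minus strand), a neuronal motor that restrains microtubule growth, was at 0.576 FPKM under si4, 0.796 under si5, 0.678 under si1 and 1.03 in control cells. It passed the 1 FPKM limit only through the control, so a lower value in the other libraries was built into its selection. Its log2 ratio of -0.59 for ZSCAN5A knockdown sat at the edge of the 1.5-fold limit, with KIF3A at -0.55 as the nearest gene outside it. KIF21A, its relative, was at 10.7, 9.83, 9.30 and 9.41 FPKM. KIF7, a regulator of Hedgehog signalling at the tip of the cilium, was at 8.18, 7.29, 7.36 and 8.26, and KIF24, which acts on centrioles, at 2.55, 2.75, 2.32 and 2.80. KIF26A was at 2.12, 2.11, 1.98 and 2.37, KIF27 at 1.71, 1.54, 1.65 and 1.67, and KIF9, a motor of motile cilia, at 1.30, 1.01, 1.26 and 0.973. Of the genes that stayed below 1 FPKM, KIF6, KIF12, KIF19, KIF25 and KIF26B lay between 0.0546 and 0.452 FPKM. KIF12 rested on 38, 36, 28 and 17 fragments and KIF19 on 12, 23, 20 and 15, so their ratios carry wide counting intervals, from 1.13 to 3.87 for KIF12 with si4.

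The mitotic class stood to one side in the comparison that does not use the control. All 13 mitotic kinesins had a higher mean in the ZSCAN5A knockdown libraries than in the library labelled ZSCAN5B knockdown, with a median log2 ratio of 0.13, a lowest of 0.02 for KIF18B and a highest of 0.32 for KIFC1. Over all 12888 genes the median was -0.01. Both si4 and si5 lay above si1 for 11 of the 13, all but KIF18B and KIF20A, where 29.5% of all genes did. For the 14 transport genes 5 means were higher and 9 lower, with a median of -0.02, and both siRNAs lay above si1 for 4. None of the 33 kinesins with a value passed 1.5-fold here, where 1.31% of all genes did. CENPE, a kinesin that the name rule did not cover, passed it at 0.65. The differences are small, and si4 and si5 also differed from each other, since si5 lay above si4 for 12 of the 13 mitotic and 3 of the 14 transport genes, where it did so for 45.4% of all genes. The median log2 ratio of si4 to si5 was -0.12 over the mitotic genes, about as large as the difference between targets. The si5 library was also the deepest, and the part of depth in this was not tested.

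Transcript length and GC content differed between the classes. The 13 mitotic transcripts had a median length of 4090 bases and a median GC content of 41.6%, and the 14 transport transcripts 6060 bases and 49.9%. Over all genes the ratio of ZSCAN5A knockdown to the control fell with both, with a Spearman rho of -0.32 for length and -0.16 for GC content over 12479 genes. Over the 34 kinesins rho for GC content was -0.47, over the 13 mitotic genes -0.74 and over the 14 transport genes -0.02, as a description across genes that share the same 3 libraries. For length it was -0.30, 0.335 and -0.15 in the same order, so the mitotic genes went against the relation over all genes. KIF18A had 36.0% and KIF20B 34.3% GC, whereas KIF18B had 58.4% and KIF21B 59.8%. For the library labelled ZSCAN5B knockdown, rho for GC content was -0.79 over the 13 mitotic genes and 0.04 over the transport genes. For length it was 0.48 and -0.62, against -0.34 over all genes. Comparing ZSCAN5A knockdown directly with that library left no such relation for GC content, with rho of 0.09 over the mitotic genes and 0.00 over all genes. For length, rho there was -0.35 over the mitotic, 0.43 over the transport and 0.05 over all genes.

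**Figure D3:**
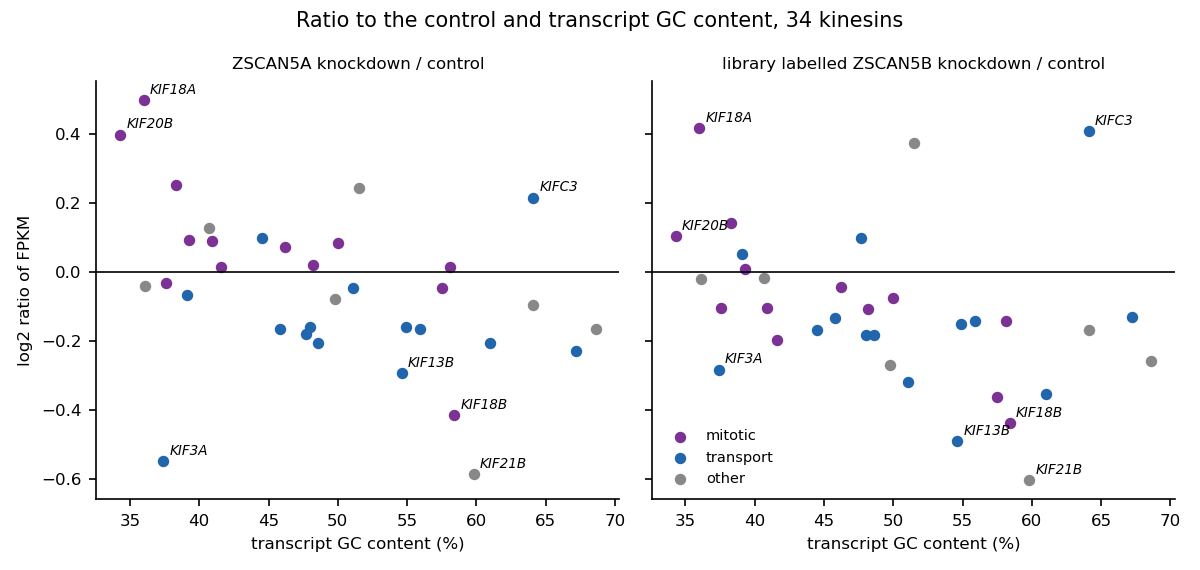
The log2 ratio of FPKM to the control (vertical axis) against the GC content of the reference transcript in percent (horizontal axis) for 34 kinesins, with ZSCAN5A knockdown on the left and the library labelled ZSCAN5B knockdown on the right. Purple mitotic points run from KIF18A and KIF20B at low GC content down to KIF18B at 58.4%, and blue transport points show no such slope.

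Each ratio was therefore also set against the median over genes matched to it in length and GC content. The mitotic median with ZSCAN5A knockdown then was 0.09, with 10 of 13 genes above 0 as before, and the transport median became 0.05, with 9 of 14 above 0. The difference between the class medians was 0.24 as deposited and 0.04 after this correction. With the library labelled ZSCAN5B knockdown the difference was 0.06 and became -0.07. GC content was also taken alone, in ranges not matched in length. Below 40%, the mitotic median with ZSCAN5A knockdown was 0.25 (5 genes) and the transport median -0.31 (2 genes). They were 0.05 (4) and -0.165 (5) from 40 to 50%, and -0.02 (4) and -0.16 (4) from 50 to 60%. With the library labelled ZSCAN5B knockdown they were 0.105 and -0.116, -0.105 and -0.167, and -0.252 and -0.235 in the same ranges. KIF18A kept a ratio of 0.39, KIF18B of -0.27, KIF20B of 0.34 and KIF3A of -0.61 with ZSCAN5A knockdown, whereas KIF21B went to -0.20. In the comparison without the control, all 13 mitotic genes stayed above 0, with a median of 0.13.

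**Figure D4:**
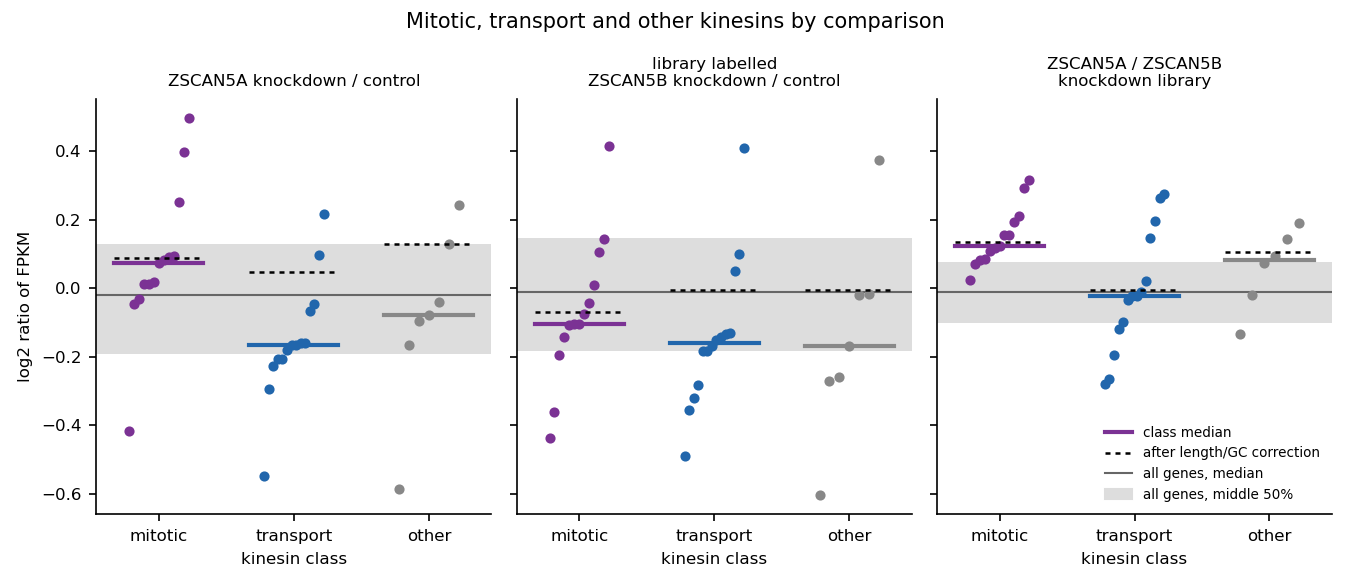
The log2 ratio of FPKM per gene (points) for mitotic, transport and other kinesins in 3 comparisons, with class medians as solid bars and class medians after the length and GC correction as dashed bars. The grey line and band give the median and the middle 50% of all genes. Transport medians against the control move from -0.17 to 0.05 and from -0.16 to 0.00 with the correction, and the mitotic median against the ZSCAN5B knockdown library stays at 0.13.

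Promoters of mitotic kinesins share elements that were not used to choose them. The CHR, or cell cycle genes homology region, is an element of genes expressed late in the cell cycle, often found near CCAAT boxes. In RefSeq promoter windows, 250 bases before to 50 after each gene start on GRCh38.p14, TTTGAA or TTCGAA on either strand was found in 11 of the 15 mitotic genes, or 73.3%, in 1 of 11 transport genes with a window, or 9.09%, in 1 of 8 others, or 12.5%, and in 19.5% of 27305 genes. CCAAT on either strand was found in 11 of the 15 mitotic, 4 of the 11 transport and 3 of the 8 other genes, and in 39.7% of all genes. A window was found for 34 of the 42 genes, which leaves out KIF5A, KIF13B, KIFC2, KIFC3, KIF19, KIF21B, KIF26B and KIF27. These are matches of letters, not measured sites.

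The following stretches of 30 bases, along each gene's strand and placed by exact match on GRCh37, show the element in the marker genes, in the pair KIF18A and KIF18B with opposite ratios, in the near copies KIF4A and KIF4B, and in KIF5B, the transport gene that holds it. Capitals mark the CHR letters.
KIF11, chr10:94352847-94352876, plus strand: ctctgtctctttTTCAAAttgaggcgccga
KIF20B, chr10:91461359-91461388, plus strand: tggccgccattgTTTGAATTTGAAaacggt
KIF18A, chr11:28129696-28129725, minus strand: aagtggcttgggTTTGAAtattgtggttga
KIF18B, chr17:43025122-43025151, minus strand: ccgcccggctaaTTTGAAcgcaaggcgccg
KIF4A, chrX:69509908-69509937, plus strand: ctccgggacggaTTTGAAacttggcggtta
KIF4B, chr5:154393306-154393335, plus strand: ctctgggagggaTTTGAAacttggcggtta
KIF5B, chr10:32345476-32345505, minus strand: agtgcagtaaaaTTTGAAtctgcgaccccg

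The element of KIF11 began 28 bases and that of KIF18A 10 bases before the RefSeq gene start, and that of KIF5B 140 bases before it. The mitotic genes that hold the element covered both ends of the ratios, from -0.42 for KIF18B to 0.50 for KIF18A with ZSCAN5A knockdown, with a median of 0.08 over 10 genes. The 3 expressed mitotic genes without these letters, KIF2A, KIF2C and KIF20A, had a median of 0.02.

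**Figure D5:**
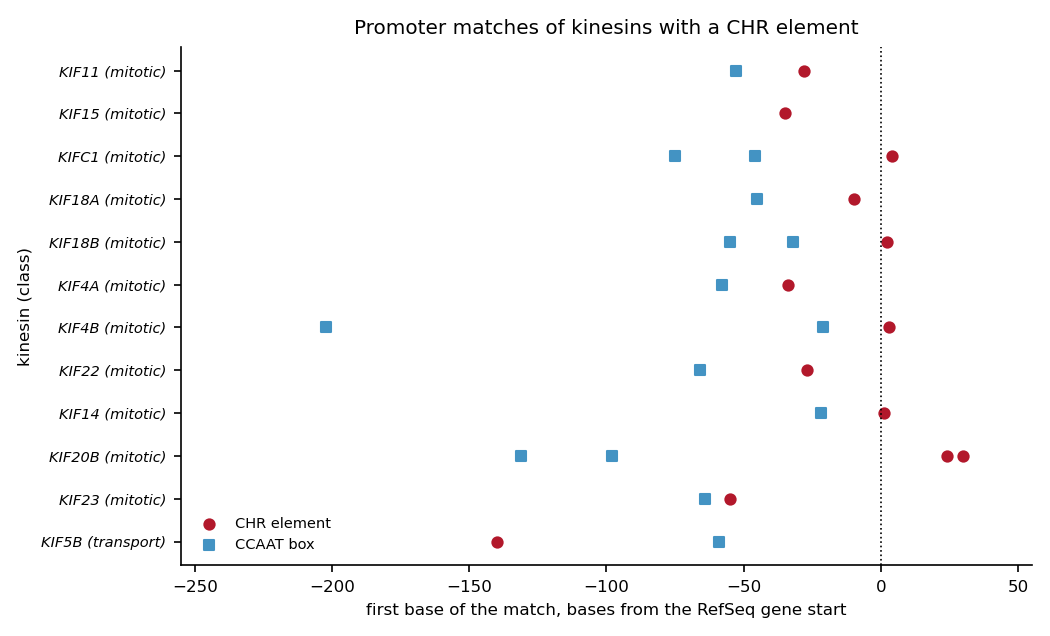
Position of the first base of each CHR match (circles) and CCAAT match (squares), in bases from the RefSeq gene start on the horizontal axis, for the mitotic and transport genes with a CHR match. The 11 mitotic genes have it between 55 bases before and 30 bases after the start, and KIF5B, the transport gene, has it 140 bases before the start.

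Because siRNAs can act on transcripts that carry a match to their seed, the kinesin 3′ UTRs were searched for the 7 bases that pair with guide bases 2 to 8. The target sites, with that stretch in capitals, were as follows.
si4, in ZSCAN5A: cgagaagaggtttACGTGTAa
si5, in ZSCAN5A: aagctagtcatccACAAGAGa
si1, in ZSCAN5B: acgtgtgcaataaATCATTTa

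Of the 34 expressed kinesins, KIF20B held the si4 stretch, where 3.41% of 10953 genes did, and KIF3C, KIF13B and KIF26A the si5 stretch, where 12% did. The si1 stretch was in KIF15, KIF20B, KIF3C, KIF1B, KIF13B and KIF26A, 17.6% of the kinesins, where 23.6% of genes held it. KIF20B had a log2 ratio of 0.22 to the control with si4. The 3 genes with the si5 stretch lay between -0.30 and -0.17 with si5, with a median of -0.20, and the 6 with the si1 stretch had a median of -0.16 with si1, from -0.49 to 0.11. KIF18A, KIF18B and KIF3A held none of the 3 stretches, and the part of seed matches in the kinesin values was not tested.

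Genes whose products work with kinesins were also read from lists set by role. The 12 cargo-side partners, light chains, adaptors and mitochondrial anchors, had a median log2 ratio of -0.02 with ZSCAN5A knockdown, with 5 higher and 7 lower, and of 0.05 in the library labelled ZSCAN5B knockdown. MAPK8IP2, a scaffold that binds kinesin light chains, was the only one past 1.5-fold in the mean of si4 and si5, at 10.8 FPKM under si4, 4.95 under si5, 5.12 under si1 and 4.54 in control cells, so si4 alone was high. MAPK8IP1, a related scaffold, was past 1.5-fold with si4 as well, at 4.47 FPKM against 2.56 in control cells. Of the 15 mitotic partners, 6 were higher and 9 lower with ZSCAN5A knockdown, with a median of -0.06, and the median was -0.12 in the library labelled ZSCAN5B knockdown. CENPE, a kinetochore kinesin whose symbol the name rule did not cover, was at 8.89, 9.78, 5.95 and 6.41 FPKM, with both ZSCAN5A siRNAs high. Its log2 ratio was past 1.5-fold with si5, at 0.61, and for ZSCAN5A knockdown against the library labelled ZSCAN5B knockdown, at 0.65. CIT, the citron kinase that works with KIF14, was at 5.09, 5.86, 4.62 and 7.06, and past 1.5-fold with si1. Against the library labelled ZSCAN5B knockdown, 14 of the 15 mitotic partners had the higher mean with ZSCAN5A knockdown, with a median of 0.12, against -0.01 over all genes. Both si4 and si5 lay above si1 for 10 of the 15, where 29.5% of all genes did. Of 11 proliferation genes 8 had the higher mean in this comparison, with a median of 0.05, and both siRNAs lay above si1 for 6. As for the kinesins, the share of all genes with the higher mean was not counted. The 11 proliferation genes had medians of 0.09 and 0.00 against the control. RRM2, a subunit of ribonucleotide reductase, was the lowest of them, at 54.1 FPKM under si4, 79.7 under si5, 46.5 under si1 and 87.9 in control cells. MKI67 was at 34.6, 39.9, 31.2 and 41.3. The part of cell cycle distribution in the kinesin values was not tested. In bulk RNA, a change in the number of cells in mitosis and a change in RNA per cell cannot be told apart.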

How the data were processed

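RNA-seq of 4 HEK-293 libraries was analysed, grouped by the labels. The authors deposited 1 table of FPKM values, and the submitters' processing notes name CASAVA 1.8.2, Trimmomatic 0.30, TopHat2 2.1.0, Cufflinks 2.2.1 and hg19. Labels and methods name different kits, both for stranded mRNA, and whether counting used strand is not given in the sources used here. For 17 kinesins exons overlap an opposite-strand gene.

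Ratios of deposited FPKM were formed with no pseudocount for genes at 1 FPKM or more in at least 1 library of a comparison and above 0 on both sides, with a 1.5-fold limit. No test was made with 1 library per siRNA. Limma 3.58.1 in R 4.3.3 served as an alternative. Every kinesin that reached 1 FPKM is given with its 4 values. Members, classes and gene lists were chosen with earlier results of these data known.

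Depth and fragment numbers were estimated from the steps of FPKM values below 0.3 and GENCODE transcript lengths. Intervals are 95% exact Clopper-Pearson intervals on these numbers and cover counting error only. Lengths and GC content came from GRCh37 annotation, matched for 96% of 12993 symbols. Scripts were tested on simulated data. Sequences came from RefSeq (GRCh38.p14 table) and the study's siRNA list. Alternatives covered limits, pseudocounts, scaling, length and GC content, and single siRNAs.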

Additional observations from a re-analysis of the deposited data

Results flagged for a closer look

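For 5 of the 34 expressed kinesins, si4 and si5 lay on one side of the control and si1 on the other, where 10.1% of 13078 genes did so. With ZSCAN5A knockdown the log2 ratio was 0.091 for KIF15, 0.128 for KIF21A and 0.074 for KIF4A, and in the library labelled ZSCAN5B knockdown -0.104, -0.017 and -0.044. It was -0.18 for KIF3B and -0.066 for KIF5B with ZSCAN5A knockdown, against 0.10 and 0.052. The differences between targets were not tested, each rests on 1 library per siRNA and on the shared control, and after the length and GC correction KIF3B changed its sign for ZSCAN5A, and KIF4A, KIF21A and KIF5B for the library labelled ZSCAN5B knockdown.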

How the results depend on the processing

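The counts of kinesins past the fold limit against the control rested on KIF21B alone and were easily moved. For ZSCAN5A knockdown it was 1 as reported, 4 with no limit on low values, 5 at a limit of 25% higher or 20% lower, and 0 at 5 FPKM, with a pseudocount of 0.1 or 1 FPKM, with median-ratio or upper-quartile scaling, at 2-fold, and when si4 and si5 each had to pass. It ranged from 0 without si4 to 2 without si5 (KIF21B and KIF3A), and with the length and GC correction the 1 gene past the limit was KIF3A in place of KIF21B. Limma on log2(FPKM + 1), with 1 residual degree of freedom from si4 against si5, called 0 kinesins at an adjusted p of 0.05 and 3 at an unadjusted p of 0.05 (KIF3A, KIF18A and KIF18B), and 10 and 1607 of all 13078 genes. For the library labelled ZSCAN5B knockdown the count was 2 with no limit, 8 at that lower limit, and 0 at 5 FPKM, with either pseudocount, with the length and GC correction and at 2-fold. Between si4 and si5 it was 2 with no limit, 5 at that lower limit, and 0 at 5 FPKM, with a pseudocount of 1 FPKM and at 2-fold, and between the targets 1 (KIF19) with no limit.

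The mitotic median for ZSCAN5A knockdown ranged from -0.004 (si4 alone) to 0.130 (si5 alone), so its direction rested on si5. The length and GC correction turned the transport median to 0.047 and moved the difference of class medians to 0.042, and for the library labelled ZSCAN5B knockdown it moved the transport median to -0.005 and turned the difference to -0.065. Scaling, pseudocounts, the limits on low values and leaving out KIF2A, KIF4B and KIF13A changed none of the 6 medians and differences in direction. With the correction 12 of 34 kinesins changed sign for ZSCAN5A knockdown and 8 for the other, with scaling 0. Low genes limit what can be read, since KIF4B, KIF12 and KIF19 rest on under 40 fragments a library. No paired analysis was possible because the groups compared share fewer than 2 replicate numbers.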
